A study of Homo sapiens with 30 samples.

Results

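Titanium dioxide nanobelts (TiO2-NB) at 100 µg/ml were set against the same nanobelts at 10 µg/ml, both after 24 h on a human intestinal co-culture. The members are 6 of the 30 arrays of the series, chosen by their labels: 3 biological replicates at 100 µg/ml and 3 at 10 µg/ml. All cultures held 75% Caco-2 and 25% HT29-MTX cells, grown together on Transwell inserts for 14 days and dosed from the apical side with 1.5 ml. Caco-2 is a colorectal carcinoma line that differentiates into enterocyte-like cells, and HT29-MTX is a mucus-forming line of colon carcinoma cells selected with methotrexate, so the model holds only these 2 tumour lines and no immune or stromal cells. Other arrays compared here, 3 per group, are TiO2-NB for 1 h and multi-walled carbon nanotubes (MWCNT) for 24 h, each at 100 and 10 µg/ml. The 24 h controls, also 3 arrays, received fresh medium with no particles. The remaining arrays, 3 per group, are the 1 h controls and MWCNT at 100 and 10 µg/ml for 1 h. They enter no comparison of groups, but they are part of the main fit to all 30 arrays. The printed standard errors and adjusted p-values come from that fit unless another is named. These arrays also appear in the plot of the mean level of the lower genes on each array.

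Nanobelts are long, flat crystals of titanium dioxide that settle onto the apical face of an epithelial layer. The epithelium of the gut answers contact with particles and microbes partly through chemokines such as CCL20, which draws cells that carry the receptor CCR6 to the mucosa. Receptors for cytokines of the interleukin 6 family, among them IL6R, signal in the same cells through the transcription factor STAT3, and growth factor signalling through ERK is limited by feedback inhibitors of the Sprouty family.

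Levels are RMA log2 values per probe set, a group of short probes that together read 1 stretch of a transcript. RMA makes the arrays' distributions alike, so each change is relative to the other transcripts. The array medians lay between 6.45 and 6.49, and arrays at 100 and 10 µg/ml correlated at 0.9961 to 0.9986, against 0.9977 or more within each group. Of the enterocyte markers, 20 of 24 lay above the median level of all probe sets, as did 14 of 20 goblet and mucus markers. Of the leukocyte markers 5 of 22 did, and of the fibroblast and endothelial markers 3 of 16. In whole cultures, fewer cells of a type and less RNA per cell cannot be told apart.

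The higher dose differed from the lower mainly through lower levels. Of 22215 probe sets, 406 (1.83%) passed an adjusted p under 0.05 ("called" below): 28 (0.126%) were higher at 100 µg/ml and 378 (1.7%) were lower. With the brightest probe set standing for each gene, 194 of 11963 genes (1.62%) were called, 12 higher (0.1%) and 182 lower (1.52%). In 187 of these 194 genes the 3 arrays at 100 µg/ml did not overlap the 3 at 10 µg/ml, as was so in 13.7% of all genes. The call rests on the same arrays, so this count adds nothing to it. The changes were modest: 169 called probe sets differed by at least 1.5-fold, 168 of them lower, and 41 by at least 2-fold. The median change over all genes was 0.009 on the log2 scale. Leaving out replicate 3 at 100 µg/ml left 191 probe sets called, and leaving out replicate 2 at 10 µg/ml left 266. When only the 6 compared arrays were fitted, 2 probe sets were called, 1 higher and 1 lower, so that fit showed no excess of falls. CCL20 was the higher one (adjusted p = 0.0211).

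CCL20 was the largest rise. Its log2 level was 8.63, 8.63 and 8.70 on the arrays at 100 µg/ml, against 8.01, 7.94 and 7.92 at 10 µg/ml. The arrays did not overlap, and those at 100 µg/ml had an SD of 0.038. The change was 0.70 ± 0.085 (SE, n = 3 per group), a 1.62-fold rise (adjusted p = 1.02e-04), and the gene stayed called with any one of the 6 arrays left out. The 250 bases before its start site are shown because CCL20 is a textbook target of NF-kB, and the capitals mark matches to the NF-kB-like motif GGGA, any 4 bases, CC, searched on both strands. The window is chr2:227813592-227813841 on GRCh38.p14, forward strand, from RefSeq.
CCL20 promoter: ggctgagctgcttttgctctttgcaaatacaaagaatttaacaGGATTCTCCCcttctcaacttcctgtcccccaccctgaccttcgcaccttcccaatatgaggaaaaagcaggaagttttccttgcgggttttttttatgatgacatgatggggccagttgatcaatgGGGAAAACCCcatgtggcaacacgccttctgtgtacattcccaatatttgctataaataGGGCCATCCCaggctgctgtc
One match reads forward, at 80 to 71 bases before the start, and 2 read on the reverse strand. The motif occurs in 22.6% of 35116 promoter windows of this length, so a match is a description of the sequence and not evidence of binding.

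The other 11 genes that rose changed by less than 1.5-fold. GAL, which encodes the neuropeptide galanin, was at 7.19, 7.09 and 7.14 at 100 µg/ml, against 6.80, 6.94 and 6.74 at 10 µg/ml (0.32 ± 0.067, adjusted p = 0.00796). SLC2A1, the glucose transporter GLUT1, was at 10.63, 10.63 and 10.62 against 10.36, 10.36 and 10.40 at 10 µg/ml (0.26 ± 0.057, adjusted p = 0.0129). SRSF5, a splicing factor of the SR family, was at 11.27, 11.20 and 11.28 at 100 µg/ml, against 11.05 ± 0.044 (SD, n = 3) and no array above 11.09 at 10 µg/ml. None of these genes overlapped between the doses. SRSF5 was also the only gene with 2 probe sets called higher (0.20 ± 0.044 and 0.22 ± 0.043).

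SPRY2, a Sprouty inhibitor of ERK signalling, rose by 0.25 ± 0.063 (adjusted p = 0.0368). PLSCR1, a phospholipid scramblase induced by interferon, rose by 0.17 ± 0.041 (adjusted p = 0.027). SPCS3, a subunit of the signal peptidase, rose by 0.23 ± 0.057, and the matrix protein gene TINAGL1 by 0.26 ± 0.066 (adjusted p = 0.0384 and 0.0343). The second probe set of SPCS3 changed by -0.04 and was not called, so this gene is uncertain. Apart from CCL20, each of the 12 lost its call with at least 1 array left out. Without replicate 3 at 100 µg/ml the adjusted p was 0.0897 for SRSF5, 0.41 for SPRY2, 0.341 for TINAGL1 and 0.476 for SPCS3. It was 0.0673 for GAL without replicate 3 at 10 µg/ml, and without replicate 2 at 10 µg/ml 0.0668 for SLC2A1 and 0.225 for PLSCR1. INPP5D, the lipid phosphatase SHIP1, rose by 0.32 ± 0.085 with an adjusted p of 0.0486, and lost its call with any 1 of the 6 arrays left out. SLC17A3, a urate and phosphate transporter (1.29-fold), the stress ligand gene ULBP1 (1.2-fold) and the Y-linked PRKY (1.27-fold) were also called. The mean level of each was under 4.78, the level below which 25% of probe sets lay.

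Several of the 12 rises look different beside the controls. CCL20 averaged 7.85 ± 0.15 in controls, 7.96 ± 0.051 at 10 µg/ml and 8.65 ± 0.038 at 100 µg/ml (SD, n = 3 each). SLC2A1 averaged 10.35 ± 0.052, 10.37 ± 0.026 and 10.63 ± 0.0061 in the same order. INPP5D averaged 5.62 ± 0.091 in controls, 5.32 ± 0.044 at 10 µg/ml and 5.64 ± 0.09 at 100 µg/ml, so that its lowest mean was at the lower dose. ULBP1 likewise averaged 4.66 in controls, 4.52 at 10 µg/ml and 4.79 at 100 µg/ml. The lowest mean was also at 10 µg/ml for PRKY (4.50, 4.27 and 4.61 in the same order), SLC17A3 (4.34, 4.23 and 4.59) and TINAGL1 (7.27, 7.23 and 7.49). For none of these genes did the difference between 10 µg/ml and control pass. The 2 comparisons with control share the control arrays, and each shares a dose group with the comparison of doses. Against control, 785 probe sets (3.53%) were called at 100 µg/ml, 162 higher (0.729%) and 623 lower (2.8%), and 13 (0.0585%) at 10 µg/ml. Without replicate 3 at 100 µg/ml the count at that dose was 491, and without control replicate 3 the count at 10 µg/ml was 8.

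**Figure D1:**
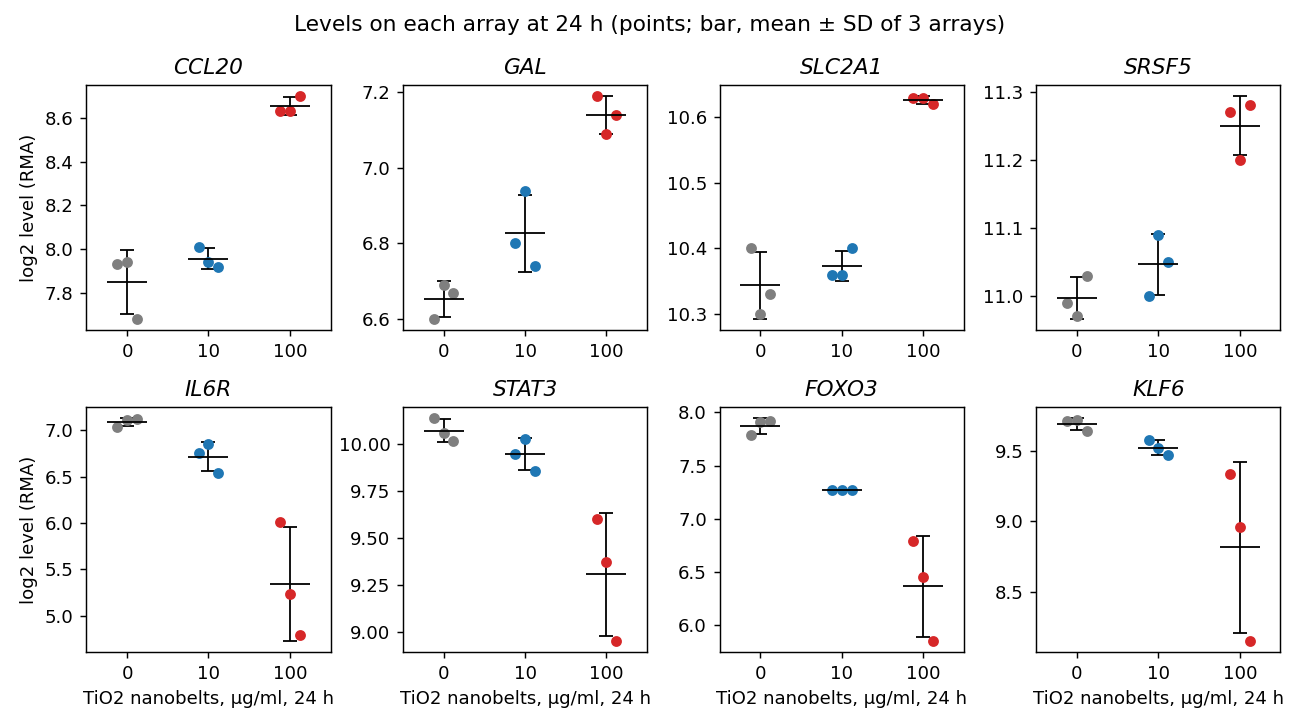
Log2 level of 8 genes on each 24 h array in controls (0) and at 10 and 100 µg/ml TiO2-NB, with the mean and SD of 3 arrays; each axis has its own range. The 4 genes of the upper row were higher at 100 than at 10 µg/ml with close replicates, and the 4 of the lower row were lower with widely spread replicates at 100 µg/ml.

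The largest fall among the brightest probe sets was that of IL6R, the interleukin 6 receptor. Its probe set was at 6.01, 5.23 and 4.79 at 100 µg/ml, against 6.76, 6.85 and 6.54 at 10 µg/ml. All 3 arrays at the higher dose lay below all 3 at the lower, and they spread over more than 1 log2 unit. The change was -1.38 ± 0.18, or 2.59-fold lower (adjusted p = 1.89e-04). A second probe set of IL6R at a level of 3.26 in both groups, among the dimmest of the array, did not pass (0.00 ± 0.14).

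STAT3, which acts downstream of such receptors, was chosen for this text after its values were seen. Its brighter probe set was at 9.60, 9.37 and 8.95 at 100 µg/ml, against 9.95, 10.03 and 9.86 at 10 µg/ml. The second was at 8.87, 8.69 and 8.30 against 8.98, 9.17 and 9.05 at 10 µg/ml. Both were lower and neither overlapped (-0.64 ± 0.091, adjusted p = 2.71e-04, and -0.45 ± 0.09, adjusted p = 0.0047). STAT3 was 1 of 5 genes with several probe sets of which all were called lower, with ZNF148, PAFAH2, TUBD1 and UBXN7.

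FOXO3, a forkhead factor that insulin signalling holds in check, was at 6.79, 6.45 and 5.85 at 100 µg/ml and 7.27 on each array at 10 µg/ml (-0.91 ± 0.16, adjusted p = 0.00162). BMP2, a ligand of the bone morphogenetic protein receptors, was at 9.77, 9.53 and 9.24 against 10.03, 10.04 and 9.98 at 10 µg/ml (-0.50 ± 0.087, adjusted p = 0.00126). The second probe set of BMP2, at a level of 9.41, changed by 0.05 ± 0.069, so the gene is uncertain. KLF6, a Krüppel-like factor, had 2 probe sets called lower (-0.71 ± 0.17 and -0.78 ± 0.19), and a dim probe set at -0.05. The call of KLF6 was lost without replicate 3 at 100 µg/ml, with an adjusted p of 0.261. SLC38A1, a glutamine transporter, fell by 0.59 ± 0.11, and CLOCK, a core factor of the circadian clock, by 0.34 ± 0.083 (adjusted p = 0.00248 and 0.0254). CLOCK was not called without replicate 3 at 100 µg/ml (adjusted p = 0.363).

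The other genes with the largest falls serve unrelated tasks. ZNF12, a zinc finger repressor, was at 6.25, 5.51 and 5.03 at 100 µg/ml, against 6.86, 6.89 and 6.61 at 10 µg/ml (-1.19 ± 0.17). PLEKHA1, a binder of phosphoinositides, was at 7.50, 6.96 and 6.49 against 8.04, 8.16 and 7.99 at 10 µg/ml (-1.08 ± 0.15). PHACTR2, a binder of actin and protein phosphatase 1, was at 6.56, 6.28 and 5.77 against 7.37, 7.25 and 7.13 at 10 µg/ml (-1.05 ± 0.13, adjusted p = 1.02e-04). In each of these the doses did not overlap, and replicate 3 was the lowest array at 100 µg/ml. PHACTR2 had a second probe set called lower (-0.70 ± 0.1) and a dimmer one at 0.10 ± 0.11, so the gene is uncertain. Its brightest probe set was already lower at 10 µg/ml than in controls (-0.68 ± 0.13, limma adjusted p = 0.0347). DYNC1LI2, a light intermediate chain of dynein, had a called probe set at -1.04 ± 0.18 and a dimmer one at 0.03 ± 0.081. The antisense RNA MCM3AP-AS1 fell by 1.17 ± 0.24. NAA15, the anchor subunit of an N-terminal acetyltransferase, was 2.04-fold lower at a level of 4.49 at 100 µg/ml, and lost its call without replicate 3 at that dose (adjusted p = 0.364).

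Many of these falls belonged to 1 probe set and not to the gene as a whole. MTDH, a protein of the endoplasmic reticulum and of cell-cell contacts, had 1 probe set at 9.34, 8.84 and 8.16 at 100 µg/ml, against 9.84, 9.81 and 9.73 at 10 µg/ml. Its other probe sets were as bright and changed by 0.00 ± 0.04 and 0.01 ± 0.055. EIF5, a translation initiation factor, had 1 probe set at -0.99 ± 0.16 and 4 others between -0.03 and 0.07. KIF5B, the heavy chain of kinesin 1, had 1 at -1.01 ± 0.19 and another at -0.01 ± 0.043. For SRPK2, a kinase of SR proteins, the values were -0.98 ± 0.15 for the called probe set and -0.08 to 0.09 for the other 3.

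The same held where the gene had 2 called probe sets. PLPP3, a lipid phosphatase of the plasma membrane, had 2 probe sets called lower (-1.10 and -1.18) and 1 of similar brightness at -0.01 ± 0.062. PPIG, a cyclophilin of nuclear speckles, had 2 called lower (-1.01 and -0.60) and 1 at 0.11. For WASL, the actin regulator N-WASP, the brightest probe set was at -1.12 ± 0.22 and the other at 0.07 ± 0.073, and the call was lost without replicate 3 at 100 µg/ml (adjusted p = 0.0585). For MBP, myelin basic protein, the called probe set was at -1.07 ± 0.17 and 3 others lay between -0.02 and 0.09. These genes are named as uncertain, since their probe sets disagree.

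The split also ran the other way, with the dimmer probe set lower. TPR, a protein of the nuclear pore basket chosen here after its values were seen, had the deepest fall of all named probe sets. That probe set was at 6.84, 5.55 and 4.50 at 100 µg/ml, against 7.79, 7.97 and 7.56 at 10 µg/ml (-2.14 ± 0.3, adjusted p = 2.71e-04). The brightest probe set of TPR, at 9.82 and 9.90, changed by -0.09 ± 0.057. MYO6, a myosin of the brush border chosen in the same way, had 1 probe set at -1.23 ± 0.14 and its 2 brighter ones at -0.04 and -0.05. Of 4310 genes with several probe sets, 127 had a probe set called lower while their brightest was not called. In all, 309 genes had a probe set called lower.

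**Figure D2:**
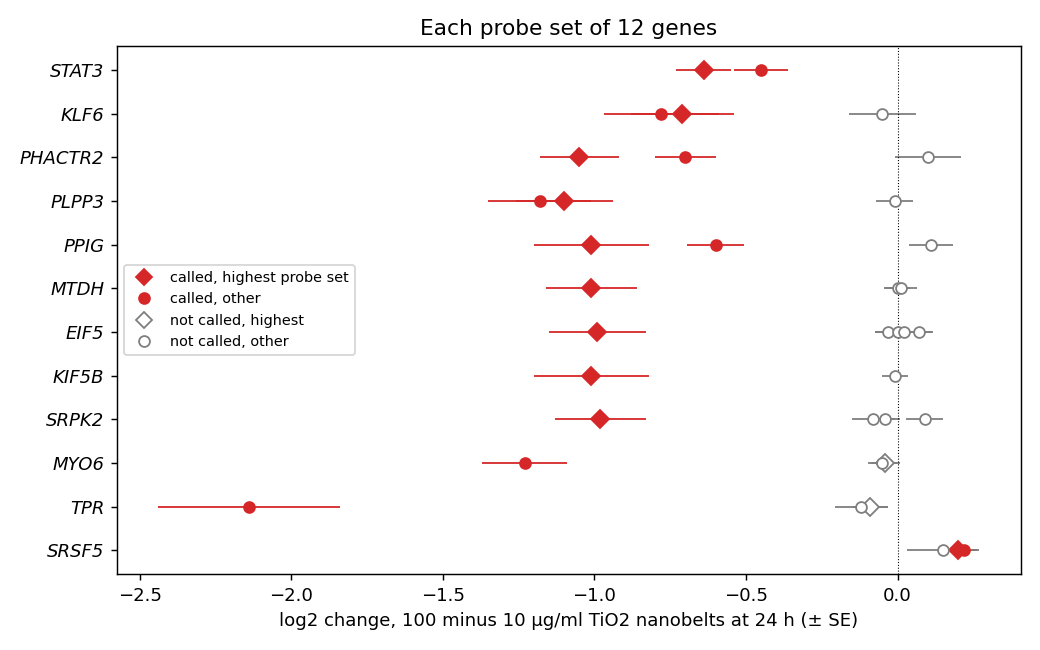
Log2 change from 10 to 100 µg/ml TiO2-NB at 24 h for each probe set of 12 genes, with its standard error; diamonds mark the brightest probe set and red marks an adjusted p under 0.05. STAT3 had both probe sets lower, while MTDH, EIF5, KIF5B and SRPK2 had 1 lower probe set beside others near 0.

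Over all genes the disagreement was frequent among those called. Of the 182 lower genes, 106 had 188 further probe sets, of which 23 (12.2%) were themselves called lower, against 1.7% of all probe sets. The median change of these 188 was -0.022, against -0.48 for the brightest probe sets of the 182 genes. Of 98 further probe sets at a level of 7 or more, 78 changed by less than 0.2. In a test added after the data were seen, the change of the brightest probe set was set against that of the next brightest in 4310 genes. The 2 changes differed in 171 genes (3.97%). The brightest had the lower change in 68 (1.58%) and the higher change in 103 (2.39%), whether or not either probe set fell. No gene had probe sets called in both directions. The positions of the probes on the transcripts were not analysed here, so which stretch of each transcript was lower cannot be stated.

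The falls also differed between the replicates at 100 µg/ml. The mean over the 182 lower genes, relative to the 24 h controls, was -0.40, -0.68 and -0.96 on the 3 arrays at 100 µg/ml, against -0.14, -0.10 and -0.20 at 10 µg/ml. The genes were chosen on these arrays, replicate 3 included, so the gap, the spread and the order of the arrays are descriptions. Replicate 3 was the lowest of its group in 164 of 182 genes and replicate 1 the highest in 171. The median SD of these genes was 0.25 at 100 µg/ml, against 0.08 at 10 µg/ml, while over all genes it was 0.061 and 0.071. The printed errors come from 1 estimate of the spread over all 30 arrays, so for the lower genes they rest mostly on groups with a smaller spread.

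**Figure D3:**
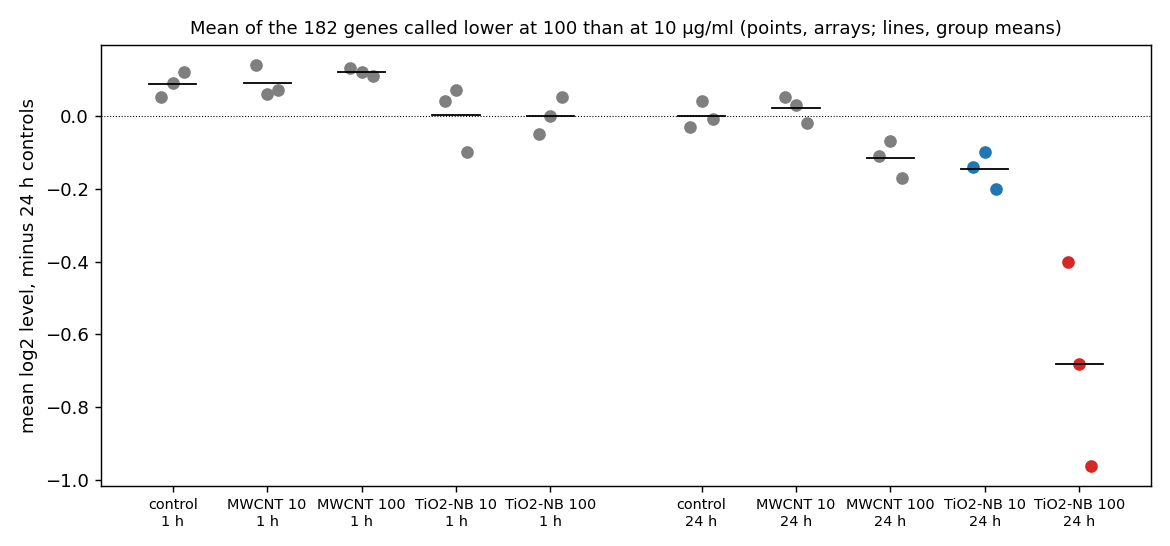
Mean log2 level of the 182 genes called lower at 100 than at 10 µg/ml TiO2-NB, relative to the 24 h controls, for each of the 30 arrays (points) and each group (lines). The arrays at 100 µg/ml for 24 h sit at -0.40, -0.68 and -0.96, and every other array sits between -0.20 and 0.14.

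Signs of RNA quality were set beside this spread. The mean of the 3 probe sets of 18S ribosomal RNA was 8.58, 8.55 and 8.43 at 100 µg/ml, against 8.54, 8.77 and 8.78 at 10 µg/ml (exact two-sided permutation p = 0.3). The middle probe set of 28S ribosomal RNA was lower on every array at 100 µg/ml, at 9.62, 9.65 and 9.49, against 9.70, 9.87 and 9.97 at 10 µg/ml (exact p = 0.1). The 3′ probe set of 18S was likewise lower without overlap (7.77 against 7.90 at 10 µg/ml), and the 3′ and middle probe sets of ACTB were higher by 0.03 and 0.05 (exact p = 0.1 for each). The 3′ minus 5′ difference was -0.04 against -0.05 at 10 µg/ml for GAPDH, and 0.37 against 0.39 at 10 µg/ml for ACTB (exact p = 0.7 and 0.9). No exact p below 0.1 can be had from 2 groups of 3. With the 18S level as a covariate, 381 probe sets were called lower and 23 higher. The lower genes spanned a median of 59 kb of genome, the higher genes 11.7 kb and all genes 28.9 kb. The part of RNA quality and gene length in the falls was not tested.

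The lower genes were grouped by symbol after their values were seen, so the counts are descriptions. Zinc finger genes (ZNF, ZBTB, ZKSCAN and ZSCAN) had 15 of 275 lower (5.45%) and none higher, beside 1.52% lower of all genes. Among them were ZNF91 (-0.94), ZNF264 (-0.84) and ZNF281 (-0.70). Genes of chromatin readers and modifiers had 7 of 65 lower (10.8%), among them the acetyltransferases EP300 (-0.80) and KAT6A (-0.31), and the bromodomain genes BRD2 (-0.82) and BRD3 (-0.61). Nuclear transport receptors had 4 of 21 lower (TNPO1, TNPO2, KPNA6 and IPO9), Krüppel-like factors 3 of 16 (KLF6, KLF7 and KLF13) and translation initiation factors 3 of 43 (EIF5, EIF5B and EIF1AX). Here too the probe sets of a gene disagreed. BRD2 had 2 probe sets called lower and 1 at 0.02, and TNPO1 had 3 called lower and 2 at 0.01 and 0.06. The second brightest probe set of EP300 was at 0.05, and that of BRD3 at 0.00. For KPNA6, IPO9, EIF1AX and EIF5B it was at 0.02, 0.04, 0.05 and -0.08, although EIF5B had 2 dimmer ones called lower. TNPO2 had its 2 brightest called lower (-0.34 and -0.30).

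In 3 families no gene was called. Of 55 ribosomal protein genes, 51 mitochondrial ribosomal protein genes and 19 hnRNP genes, limma called none in either direction (1, 3 and 0 had an unadjusted p under 0.05), with median changes of 0.004, 0.01 and 0.021. Solute carriers had 3 of 238 lower and 2 higher, close to the 1.62% called over all genes. In 4 bins of rising level with 2990 or 2991 genes each, 3, 46, 78 and 55 of the 182 lower genes were found.

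The 34 lists of pathways and markers held 9 called genes among 731 distinct genes, 3 higher and 6 lower, and 27 lists held none. That share was not above the 1.62% called of all genes. These counts, like the family counts above, use only the brightest probe set of each gene. Over all genes, 127 of the 309 with a probe set called lower had it in a dimmer one, while their brightest was not called. A list without a call can therefore still hold genes with a lower probe set. Of all 11963 genes, 6646 lay above 0. In the list of NF-kB and inflammation genes, 1 of 29 was called (CCL20), with a median change of 0.105 beside 0.009 over all genes and 19 of 29 above 0. CXCL3 and CXCL1, chemokines for neutrophils, had changes of 0.31 ± 0.095 and 0.34 ± 0.12 that did not pass (adjusted p = 0.131 and 0.264). In the list of immediate early genes and ERK feedback, SPRY2 was higher and KLF6 lower of 25, with a median of 0.099 and 20 members above 0. The ERK phosphatase DUSP6 (0.31 ± 0.093) and the AP-1 subunit FOS (0.34 ± 0.1) did not pass (adjusted p = 0.119 and 0.126). In these 4 genes, chosen by the smallest p, the doses did not overlap, as in 13.7% of all genes.

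Hypoxia and glycolysis genes had 28 of 32 above 0 and a median of 0.065, with SLC2A1 alone called. ADM, which encodes the vasodilator peptide adrenomedullin, had a change of 0.26 ± 0.071 (adjusted p = 0.0731). Of 28 interferon genes limma called none, with a median of 0.074, 21 above 0 and 3 at an unadjusted p under 0.05. IFITM3, a membrane protein that blocks virus entry, had 0.25 ± 0.066 with an adjusted p of 0.0535, and IFI27 had 0.40 ± 0.12 (adjusted p = 0.131). Of 22 leukocyte markers, 5 lay above the median level of all probe sets, among them LYZ (11.31) and AIF1 (8.76). The 22 markers had a median change of 0.118, with 18 above 0 and none called by limma (3 at an unadjusted p under 0.05). Their summed level, as a mean per gene, ran from 5.66 to 5.72 at 100 µg/ml against 5.55 to 5.65 at 10 µg/ml. In the 4 bins of rising level the median changes of all genes were 0.021, 0.018, 0.002 and 0.004. What part dim probe sets have in these medians was not tested.

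By the brightest probe set of each gene, the absorptive and secretory programmes differed little. In the brush border list CES2, a carboxylesterase, was the 1 gene called of 24, at 8.36, 8.32 and 8.08 at 100 µg/ml, against 8.57, 8.51 and 8.54 at 10 µg/ml (-0.29 ± 0.063, adjusted p = 0.0106). Its further probe sets changed by -0.01 ± 0.051 and -0.25 ± 0.078 and were not called, so CES2 is uncertain. It was not called without replicate 3 at 100 µg/ml (adjusted p = 0.167). CUBN, the endocytic receptor cubilin, had -0.44 ± 0.12 and did not pass (adjusted p = 0.0624). Chosen after their values were seen, villin (VIL1), the peptidase DPP4 and the chloride exchanger SLC26A3 had changes of 0.01 ± 0.039, 0.01 ± 0.042 and -0.02 ± 0.049. None of 20 mucus and goblet genes was called by limma (2 at an unadjusted p under 0.05). MUC5AC, a gel-forming mucin, had 0.12 ± 0.084, and TFF1, a trefoil peptide, had 0.05 ± 0.039.

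Many stress and metabolic lists held no called gene. The lists with 0 called members hold 569 distinct genes, of which limma gave 33 an unadjusted p under 0.05. Metallothioneins and zinc genes (11 measured, median 0.02), targets of NRF2 (21, median -0.024), enzymes of reactive oxygen (15, median 0.042), targets of the aryl hydrocarbon receptor (9, median 0.057) and heat shock genes (17, median -0.023) were among them. So were genes of ATF4 and the unfolded protein response (24, median 0.029), p53 and apoptosis (19, median 0.04), iron (9, median 0.022) and lysosome and autophagy (27, median -0.01). MT2A, a metallothionein that binds zinc and other metals, was at 8.23, 8.25 and 8.21 at 100 µg/ml, against 8.16, 8.03 and 8.18 at 10 µg/ml (0.10 ± 0.061, adjusted p = 0.766).

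The remaining lists without a call covered sterol synthesis (21, median 0.038), fatty acid synthesis (10, median 0.036), fatty acid oxidation (17, median 0.018), lipid export (16, median 0.014), drug metabolism and efflux (21, median 0.001) and oxidative phosphorylation (55, median 0.01). Junctions (19, median 0.024), actin and adhesion (28, median 0.031), endocytosis (26, median 0.017), ribosome biogenesis (24, median 0.013), mitosis (34, median -0.005) and DNA replication (37, median -0.024) had none either. CEACAM and acute phase genes (18, median 0.023), enteroendocrine and Paneth markers (12, median 0.043) and fibroblast and endothelial markers (16, median 0.062) complete them. Of the 18 CEACAM and acute phase genes, 10 lay above 0 and 8 below. The 4 with the smallest p, named for that reason, were CEACAM genes, adhesion antigens of the colon surface. CEACAM5 had 0.25 ± 0.074, CEACAM6 0.19 ± 0.063, CEACAM7 0.31 ± 0.1 and CEACAM1 0.32 ± 0.11. None of them passed (adjusted p from 0.0977 to 0.244), and the doses did not overlap, as in 13.7% of all genes. KIF14, a mitotic kinesin, had -0.40 ± 0.11 and overlapping arrays (adjusted p = 0.079). In the lists with a call, TGF-beta and ID genes had BMP2 alone of 20 (median 0.029), clock and FOXO genes FOXO3 and CLOCK of 20 (median -0.016), and amino acid transporters SLC38A1 of 17 (median -0.037).

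**Figure D4:**
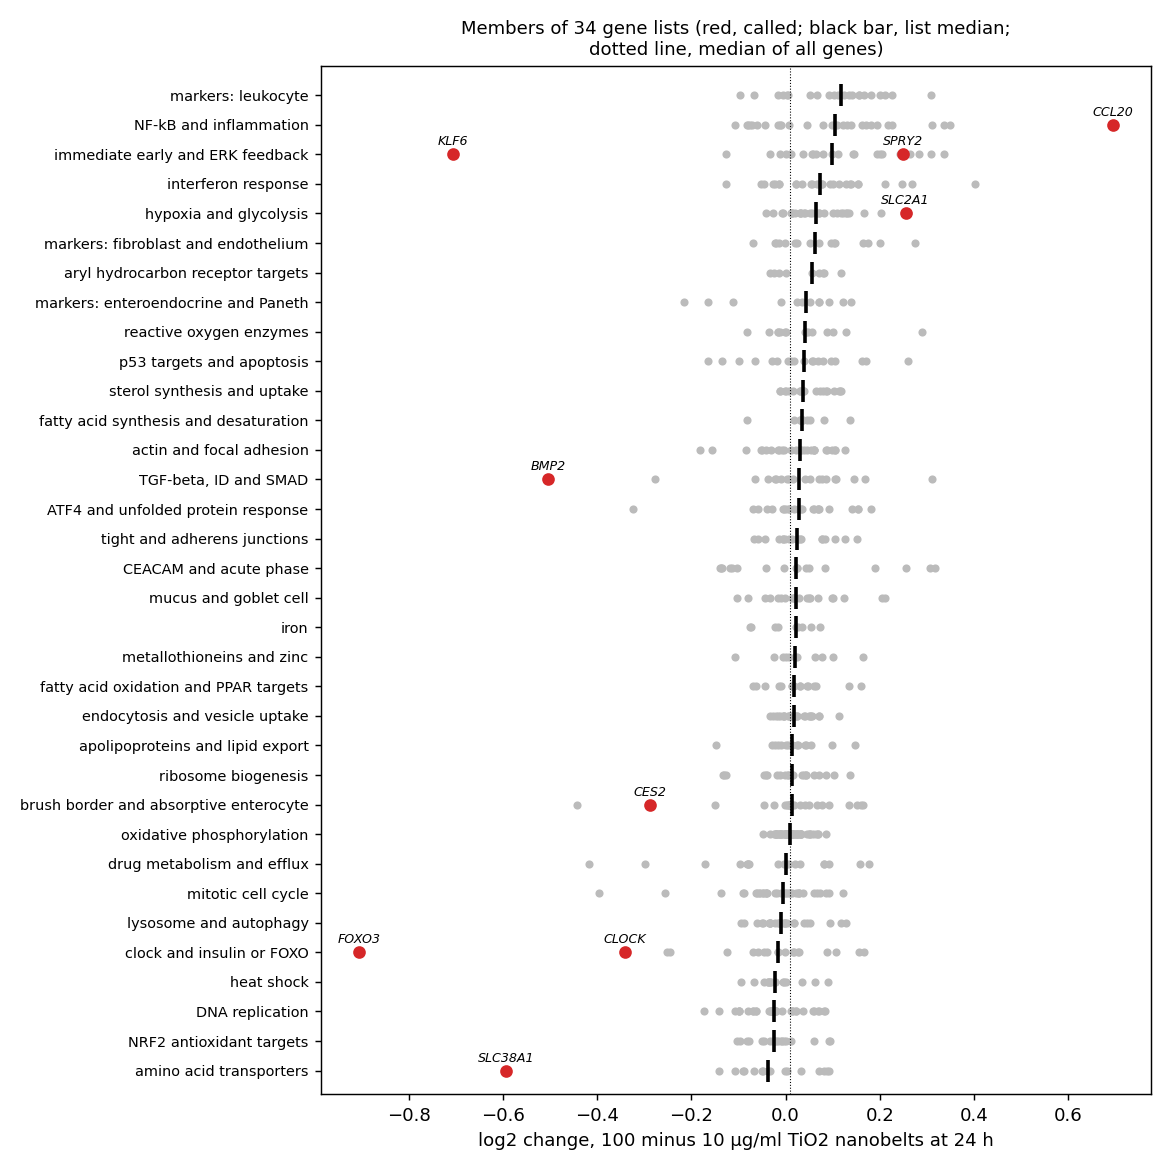
Log2 change from 10 to 100 µg/ml TiO2-NB at 24 h for each measured member (points) of 34 gene lists, ordered by the list median (black bar), with called genes in red and named. CCL20 at 0.70 and FOXO3 at -0.91 stand farthest out, and the list medians lie between -0.037 and 0.118.

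Whether the dose change was particular to the nanobelts was asked of MWCNT at the same doses and time, which share no array with them. No probe set was called in the MWCNT change from 10 to 100 µg/ml (0%, with 1478 at an unadjusted p under 0.05). Of the 182 genes lower with TiO2-NB, 173 (95.1%) also lay below 0 with MWCNT, against 48.2% of all genes, with a median of -0.132. On the arrays, the mean of these genes was -0.11, -0.07 and -0.17 at 100 µg/ml MWCNT, against 0.05, 0.03 and -0.02 at 10 µg/ml MWCNT. Over 11963 genes the 2 dose changes correlated at 0.34, across genes that are not independent and on arrays normalised together. IL6R changed by -0.28 ± 0.18 with MWCNT and PHACTR2 by -0.40 ± 0.13, and neither passed.

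The difference between the 2 dose changes was called for 0 probe sets by limma (1162 had an unadjusted p under 0.05), so no gene was shown to differ between the particles. Without replicate 1 at 100 µg/ml TiO2-NB, 193 probe sets were called, 187 of them more lowered with TiO2-NB. By the brightest probe set of each gene, the 3 with the smallest p had a positive difference. Of the probe sets described above, IL6R (-1.10 ± 0.25), TPR (-1.92 ± 0.42) and MYO6 (-1.04 ± 0.2) had negative differences at the same adjusted p of 0.301. The difference was 0.61 ± 0.12 for CCL20, which changed by 0.08 ± 0.085 with MWCNT. It was 0.36 ± 0.077 for GJA1, the gap junction protein connexin 43, and 0.29 ± 0.062 for SRSF5 (adjusted p = 0.301 for each). GJA1 was at 8.75, 8.81 and 8.88 at 100 µg/ml TiO2-NB, against 8.61, 8.58 and 8.64 at 10 µg/ml (0.20 ± 0.055, adjusted p = 0.0556).

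The dose change at 24 h was also set against that at 1 h, again on separate arrays. No probe set was called in the TiO2-NB dose change at 1 h (0%, 1427 at an unadjusted p under 0.05). Of the 182 lower genes, 89 (48.9%) lay below 0 at 1 h, against 53.8% of all genes, and their median was 0.003. The difference between the dose changes was called for 59 probe sets (0.266%), 3 with a higher and 56 with a lower change at 24 h (0.0135% and 0.252%), in 24 genes (0.201%). CCL20 changed by 0.70 ± 0.085 at 24 h and -0.04 ± 0.085 at 1 h, a difference of 0.74 ± 0.12 (adjusted p = 0.0146). IL6R changed by -1.38 ± 0.18 at 24 h and 0.13 ± 0.18 at 1 h, a difference of -1.50 ± 0.25 (adjusted p = 0.0146). The count of 59 rests on few arrays. It was 0 without replicate 3 at 10 µg/ml for 1 h, without replicate 2 at 100 µg/ml for 1 h, or without replicate 1 at 10 µg/ml for 24 h. It was 368 without replicate 1 at 100 µg/ml for 24 h, and 6 to 66 with each of the other arrays left out.

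**Figure D5:**
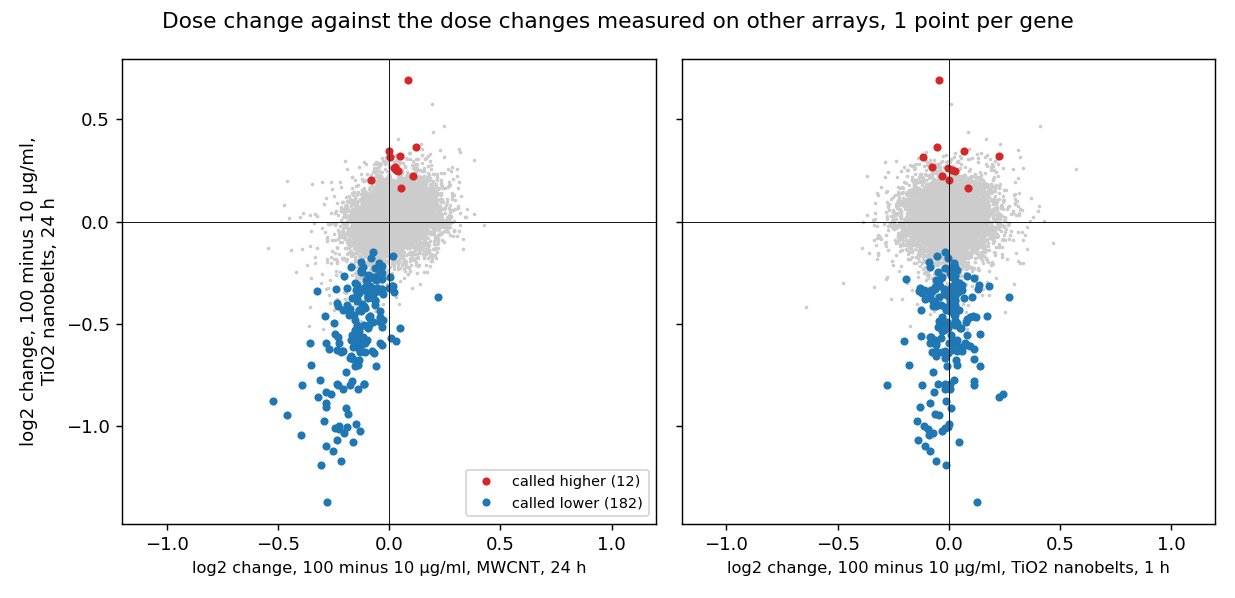
Log2 change from 10 to 100 µg/ml TiO2-NB at 24 h (vertical) against the same dose change for MWCNT at 24 h (left) and TiO2-NB at 1 h (right), 1 point per gene, with called genes coloured. The 182 lower genes lie mostly left of 0 for MWCNT (95.1%) and on both sides of 0 at 1 h (48.9% below).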

How the data were processed

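RNA from 30 co-culture samples was hybridised to Affymetrix arrays, 1 per sample. The submitters' processing notes name RMA, with a version not given in the sources used here, and the authors deposited its log2 values for 22277 probe sets. These were used as deposited, and 62 control probe sets were left out, which leaves 22215 to test. Of these, 19064 carry 1 symbol in the platform annotation, 1043 several and 2108 none, and names came from the first kind only.

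A mean for each of the 10 groups was fitted to all 30 arrays with limma 3.58.1 in R 4.3.3 (20 residual degrees of freedom), and two-sided p-values were adjusted within each comparison over all tested probe sets (Benjamini-Hochberg). A value is called at an adjusted p under 0.05, ± is the standard error unless SD is named, and n is 3 arrays per group. Arrays give no depth, so precision is limited by their number, and the labels call the 3 of a group biological replicates. The brightest probe set over all arrays stood for a gene, giving 11963 genes. Named are up to 15 called genes in each direction by size with arrays that do not overlap, up to 4 members of each of 34 lists by p, and up to 5 genes in each direction per difference of dose changes (3 by p where none was called). The members and lists were chosen with earlier results of these data known. The fit was also run on simulated data. Its outcome is not given here, so it is no evidence for the calls, least of all in the lower genes, whose spread differed between groups. No set test was run.

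Alternatives were fits on fewer arrays, other scalings, filters, variance models and probe set choices, an 18S covariate, a replicate term, and leaving out each array.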

Additional observations from a re-analysis of the deposited data

Results flagged for a closer look

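The dose change of TiO2-NB at 24 h differed from that at 1 h for 59 probe sets, and for 7 genes named by size (limma interaction, n = 3 arrays per group, adjusted p from 0.0146 to 0.0499). The difference was 0.74 for CCL20 and 0.43 for GAL, whose change was 0.32 at 24 h and -0.12 at 1 h. It was -1.50 for IL6R, -1.18 for ZNF12, -1.13 for PLEKHA1, -1.09 for ZNF264 and -0.96 for PHACTR2. ZNF264 had changes of -0.84 at 24 h and 0.24 at 1 h, and neither ZNF12 (-0.01) nor PLEKHA1 (0.05) nor PHACTR2 (-0.09) passed at 1 h. The replicates of 100 µg/ml at 24 h spread most in the genes with a negative difference, with SDs of 0.40 to 0.62, against 0.038 for CCL20 and 0.052 for GAL. Groups of 3 arrays were too small for a check on single outlying arrays.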

How the results depend on the processing

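Of 406 probe sets called between 100 and 10 µg/ml TiO2-NB at 24 h, 2 were called in a fit on the compared groups, 190 of 11963 with 1 probe set per gene, 229 with the mean of a gene's probe sets, and 125 and 127 of 4310 with the brightest and second brightest probe set of genes with several. Leaving out 1 array gave 191 to 574. Counts with arrays of 24 h only, a second quantile normalisation, centring on array medians, a filter on the dimmest 33%, an intensity trend, array weights or the 18S covariate stayed within 1.5-fold. For 100 µg/ml against control (785), the counts in the order of the probe set choices above were 376, 477, 219 and 222, with 217 in the compared groups, 1381 with array weights and 491 to 900 with 1 array left out. For 10 µg/ml against control (13) they were 5, 5, 3 and 5, with 54 under the 18S covariate and 8 to 18 with 1 array left out. For the difference from MWCNT (0), 3 were called with an intensity trend, 1 with array weights, 1 with the 18S covariate and 0 to 193 with 1 array left out. For the difference from 1 h (59), the probe set choices gave 7, 35, 28 and 29, the compared groups 1, the filter on the dimmest 33% 103, median centring 30, array weights 153 and leaving out 1 array 0 to 368.

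Arrays of different doses share replicate numbers. Between 100 and 10 µg/ml TiO2-NB at 24 h, deviations of same-numbered arrays correlated at 0.03, -0.13 and 0.10. Those of differently numbered arrays correlated at -0.13 to 0.12. With 3 arrays per group these values cannot decide whether the numbers pair the samples. The main fit did not pair them. With the replicate block 412 probe sets were called in place of 406, 773 in place of 785, 16 in place of 13, 0 in place of 0 and 104 in place of 59. No probe set standing for a named gene changed direction in any fit that included it. Fits on the second brightest probe set, or on the mean of a gene's probe sets, left out nearly all of these probe sets. The second brightest probe sets of WASL, MBP, DYNC1LI2, BMP2 and SPCS3 changed in the opposite direction, as given above. The fit on arrays of 24 h only ended the call of 14 of 36 named genes, the compared groups that of 35, and other fits on all arrays that of at most 4. With 1 array left out, 58 of 216 checks of 36 named genes lost the call, and 20 genes, CCL20 the only one that rose among them, kept it throughout. Of 340 checks of list counts, 305 stayed within 1.5-fold. Fewer genes tested or fewer arrays account by construction for part of the lower counts, and other causes were not tested. Dim probe sets limit SLC17A3, ULBP1 and PRKY.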
